A study of Mus musculus with 12 samples.

Results

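The Id genes Id1, Id2, Id3 and Id4 and the inhibitory Smads Smad6 and Smad7 were followed as readouts of BMP and TGF-beta signaling in the dermal papilla, the cluster of mesenchymal cells at the base of the hair follicle. The genes were taken by name, and all 6 were listed on both days, among 15209 protein-coding genes at P14 and 15334 at P16. RNA was sequenced from YFP-positive dermal papilla cells that had been sorted from mouse skin by FACS at postnatal days P14 and P16, in anagen, the growth phase of the hair cycle. There were 3 libraries of controls and 3 of dMF1/2 mutants at each day, 12 in all. The dMF1/2 mice were Cor-cre/+; Fgfr1 Flox/Flox; Fgfr2 Flox/Flox, in which the Corin-driven Cre removes both FGF receptor genes from the dermal papilla. The control samples carry the genotype label wild type control, and the crosses described in the methods give as control littermates either Cor-cre/+ mice heterozygous for both floxed alleles or mice with both floxed alleles homozygous and no Cre. A Cre-dependent ROSA26 YFP reporter was carried in both genotypes, so YFP-sorted controls needed Cre as well. Within a group the 3 libraries are labelled as separate replicates.

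BMP and TGF-beta ligands bind pairs of serine/threonine kinase receptors that phosphorylate the receptor-regulated Smads, which enter the nucleus with Smad4 and switch genes on or off. The Id genes, which encode helix-loop-helix proteins without a DNA-binding region that hold E proteins and other bHLH factors away from DNA, are among the most direct BMP targets. Smad6 and Smad7 are induced by the same pathways and feed back on them: SMAD6 acts mainly on the BMP branch, and SMAD7 blocks the TGF-beta and BMP receptors alike. In the hair follicle, BMP ligands and antagonists pass between the dermal papilla and the epithelium and take part in timing the hair cycle.

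Positions are given on the GRCm38 build. Id1 (ENSMUSG00000042745) lies at chr2:152736251-152737410 on the plus strand, and Id2 (ENSMUSG00000020644) at chr12:25093801-25096092 on the minus strand. Id3 (ENSMUSG00000007872) lies at chr4:136143497-136145755 and Id4 (ENSMUSG00000021379) at chr13:48261427-48264036, each on the plus strand. Smad6 (ENSMUSG00000036867) lies at chr9:63953076-64022059 on the minus strand.

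Upstream sequence from RefSeq (GRCm38.p6) was at hand for 4 of the 6, Id2, Id3, Id4 and Smad6. Bases are counted from the start of the gene in RefSeq, which is the annotated start given above for Id2 and Smad6 but lies 311 bases upstream of it for Id4 (at base 48261116) and 325 bases downstream of it for Id3 (at base 136143822). Windows of 300 bases around the RefSeq starts were searched on both strands, after the levels had been seen, for GTCTAGAC, the palindrome that SMAD3 and SMAD4 bind, for GGCGCC, a GC-rich element bound by the BMP Smads, and for a spaced element in which GNCGNC and GTCT stand 5 bases apart. The stretches that held a match are shown 5′ to 3′ on the gene's strand, with the matched letters in capitals, because they are where the letters that Smads are known to bind occur in these readout genes. The Smad6 stretch (chr9:64022056-64022159, minus strand) runs from base -100 to base 4, the Id2 stretch (chr12:25096254-25096342, minus strand) begins at base -250, and the Id4 stretch (chr13:48260916-48261015, plus strand) begins at base -200.
Smad6: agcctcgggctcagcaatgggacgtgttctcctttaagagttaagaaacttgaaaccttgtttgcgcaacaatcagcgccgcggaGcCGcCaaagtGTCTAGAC
Id2: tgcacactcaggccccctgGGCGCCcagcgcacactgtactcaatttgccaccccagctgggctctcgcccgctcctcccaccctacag
Id4: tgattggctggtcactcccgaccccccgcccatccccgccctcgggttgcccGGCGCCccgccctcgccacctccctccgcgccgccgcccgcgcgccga

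In Smad6 the palindrome GTCTAGAC began at base -4 and so lay across the start of the gene in RefSeq. It overlapped, in its first letters GTCT, a match to the spaced element that began at base -15. The palindrome was in 0.213% of 32851 windows of the same length (70 windows), and the spaced element in 0.667%. Id2 held GGCGCC at base -231 and Id4 at base -148, an element found in 11.9% of windows. The Id3 window held none of the 3 sets of letters. These matches describe letters only, and binding was not measured.

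The libraries held 19302358 to 29860750 reads on the genes listed for their day. A normalized read is a read divided by the size factor of its library, and 1 read was worth 0.841 to 1.11 normalized reads, so every level of the 6 genes rested on more than 100 reads. Fgfr1, counted over the whole gene, was at 7855 to 10108 normalized reads in P14 controls against 6451 to 7510.4 in P14 dMF1/2 mice, and at 8370 to 12337 against 6121 to 7837 at P16, lower in dMF1/2 mice without overlap on each day. Fgfr2 overlapped between the genotypes on each day (4705 to 5279 in P16 controls and 4044 to 5470.3 in P16 dMF1/2 mice), and reads over the floxed part of the gene were not separated from the rest. All 13 dermal papilla markers checked, Corin and Alpl among them, were listed and above 0 in every library. Both P14 libraries numbered 1 stood apart from the other libraries: reads of Col1a1, Col1a2 and Col3a1 made up 17.7% and 21.0% of their total, against 34.4% to 36.1% in the other P14 libraries and 27.2% to 35.0% at P16. At P16, control replicate 1 stood apart from the other controls in marker sums, with 49253 normalized reads of dermal papilla markers against 79148 to 88747, 767 of endothelial markers against 1507 to 1633, and 503549 of dissociation stress genes against 360601 to 393660.

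Per kilobase of exon, and with the 12 libraries scaled together, Id3 was the most abundant of the 6 genes at 1976 normalized reads, at the 97.9th percentile of 13398 genes. It was followed by Id2 (432), Smad7 (419.9), Id1 (377) and Smad6 (286), and Id4 was lowest at 41.0, at the 32.5th percentile. The lowest Id3 library, at 1564 normalized reads per kilobase, was above the highest library of any other member. The highest Id4 library, at 51.9, was below the lowest Smad6 library, at 133. Over all 12 libraries the ranges of Id2, Smad7, Id1 and Smad6 per kilobase overlapped between neighbours in this order, but within single groups some were apart. In P16 controls Smad6 (133 to 217) lay below Id1 (406 to 555), Smad7 (289.8 to 443) and Id2 (277 to 435). In dMF1/2 mice Id1 lay below Id2 on both days (264 to 351 against 399 to 533 at P14, and 197 to 322 against 358 to 551 at P16), below Smad7 at P14 (375 to 612), and Smad6 lay below Id2 at P16 (239 to 356).

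**Figure D1:**
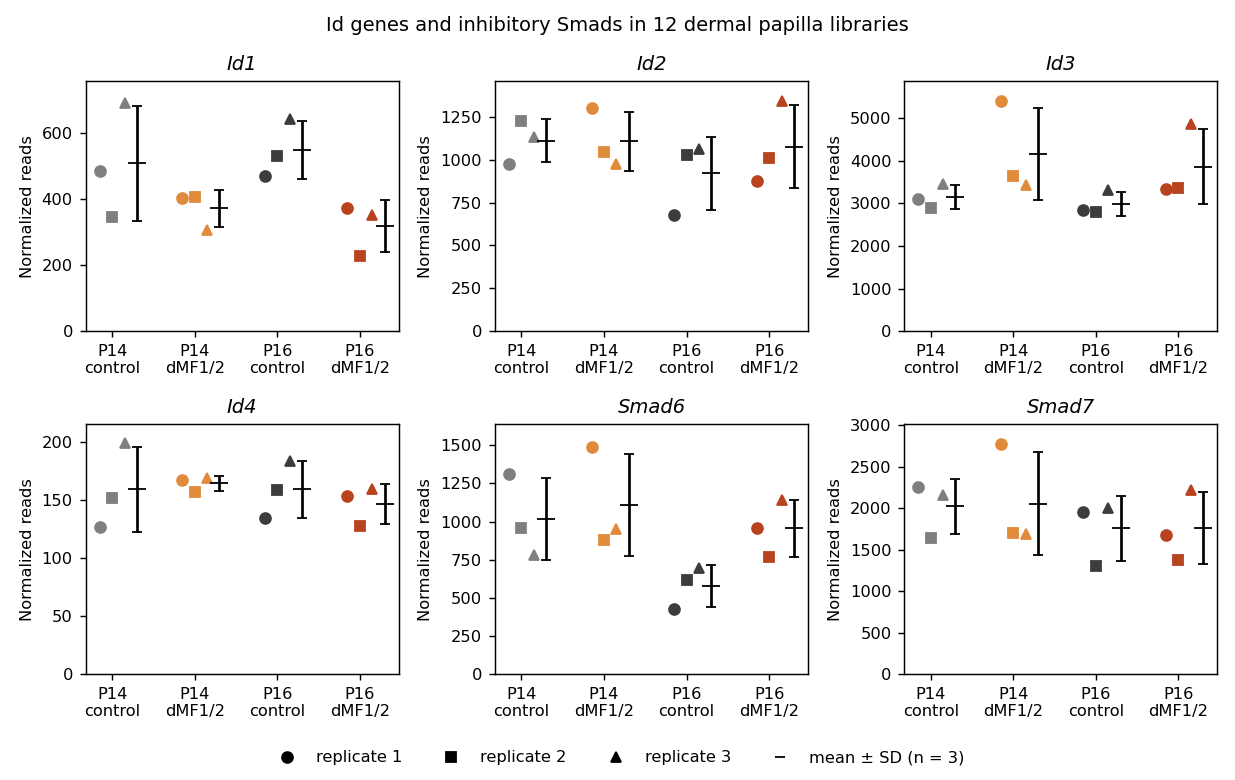
Normalized reads (vertical axis, linear from 0, the 12 libraries scaled together) of the 6 genes in P14 control, P14 dMF1/2, P16 control and P16 dMF1/2 libraries. Points are libraries, marked by replicate number, and bars are mean ± SD (n = 3). At P16, Id1 is lower and Smad6 and Id3 are higher in every dMF1/2 library than in any control library, while Id2, Id4 and Smad7 overlap.

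At P16, Id1 and Smad6 lay on opposite sides of the controls. Id1 was lower and Smad6 higher in each of the 3 dMF1/2 libraries than in any control library, Id3 was slightly higher, and Id2, Id4 and Smad7 overlapped. By limma on log2(normalized reads + 1), with p-values adjusted over all 13457 genes tested, none of the 6 passed the threshold of 0.05, where 4.32% of all genes passed. With the replicate number as a block, 3 of the 6 passed (Id1, Id3 and Smad6) where 10.4% of all genes did. DESeq2 called 2 of the 6 (Id1 and Smad6) against 7.88% of genes, edgeR called 0 against 4.48%, and by limma 3 were under an unadjusted p of 0.05, as were 19.0% of all genes. The groups did not overlap for 3 of the 6 genes, and for 24.5% of all genes. The median log2 fold change over the 6 genes was 0.12, with 4 above 0, and -0.0043 over all genes tested.

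Id1 was at 478, 541 and 652 normalized reads in the P16 controls and at 382, 232 and 359.9 in the P16 dMF1/2 libraries, replicates 1 to 3. The highest dMF1/2 library stayed below the lowest control. The means were 557 ± 88.2 and 325 ± 80.9 (SD, n = 3), a log2 fold change of -0.80 ± 0.20 (SE, 95% interval -1.26 to -0.33), or 0.575 of the control level. limma's adjusted p was 0.0690, and with the replicate block it was 0.0292. DESeq2 gave -0.78 with an adjusted p of 0.00495. Between libraries of the same number Id1 differed by -0.32, -1.22 and -0.86 on the log2 scale.

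Smad6 was at 432, 629 and 703 normalized reads in the P16 controls and at 983, 780.1 and 1164 in the P16 dMF1/2 libraries. Here the lowest mutant library was above the highest control. The means were 588 ± 139.9 and 976 ± 192 (SD, n = 3), a log2 fold change of 0.74 ± 0.20 (SE, 95% interval 0.27 to 1.21), or 1.67 times the control level. Its adjusted p was 0.0897 by limma, 0.0312 by limma with the replicate block and 0.00962 by DESeq2. The difference was 1.18, 0.31 and 0.73 on the log2 scale in the pairs of libraries numbered 1, 2 and 3.

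Id3, the most abundant member, was at 2896, 2849.6 and 3361 normalized reads in the P16 controls and at 3418, 3419.9 and 4962 in the dMF1/2 libraries. The groups did not overlap, but the gap between the highest control and the lowest mutant library was small beside the spread, and replicate 3 of the dMF1/2 mice stood well above the other two. The log2 fold change was 0.35 ± 0.15 (SE), 1.28 times the control, with an adjusted p of 0.262 by limma and 0.0430 with the replicate block. Without dMF1/2 replicate 3 the log2 fold change of Id3 was 0.18, with limma's adjusted p 0.499.

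The other Id genes and Smad7 did not separate at P16. Id2 was at 686, 1043 and 1075 normalized reads in controls and 893, 1026 and 1369 in dMF1/2 mice, with a log2 fold change of 0.24 and limma's adjusted p 0.620. Without control replicate 1 the value of Id2 was 0.027, without dMF1/2 replicate 3 it was 0.063, and without dMF1/2 replicate 1 it was 0.37. Id4 was at 137, 162 and 187 in controls and 158, 129.7 and 163 in dMF1/2 mice (log2 fold change -0.10, limma's adjusted p 0.803). Smad7, which acts on the TGF-beta receptors as well as on the BMP receptors, was at 1985, 1332 and 2028 in controls and 1718, 1399 and 2268 in dMF1/2 mice, and its log2 fold change of 0.01 came with an interval of -0.48 to 0.49. The intervals of these 3 genes still allowed changes of 0.26 to 0.71 on the log2 scale upward and of 0.24 to 0.48 downward.

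**Figure D2:**
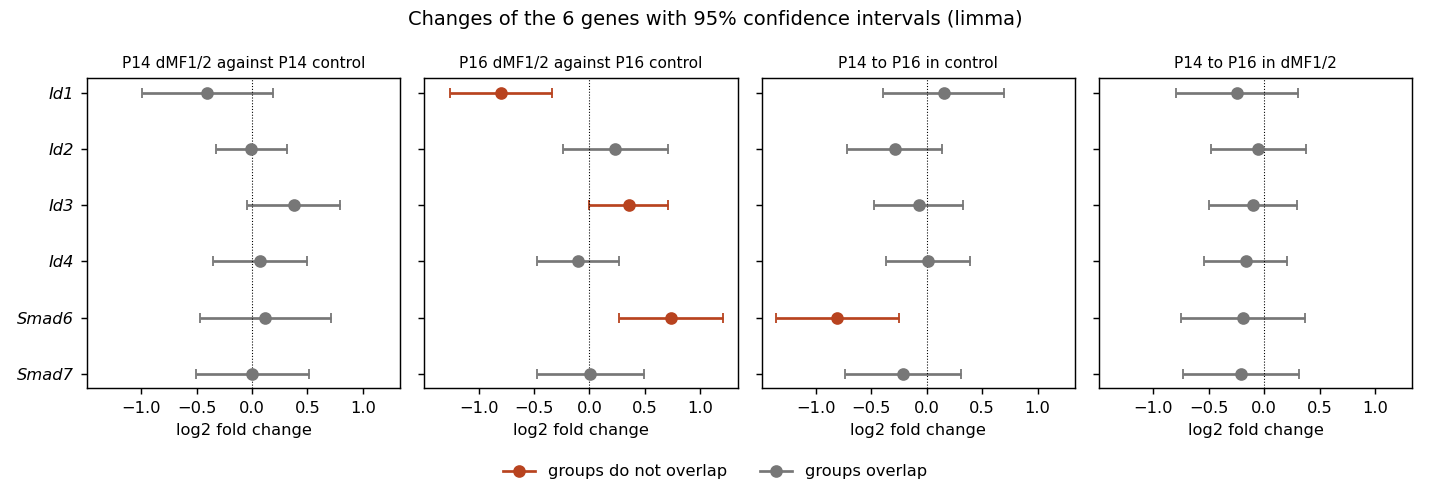
Log2 fold changes (horizontal axis) of the 6 genes with 95% confidence intervals by limma in 4 comparisons: dMF1/2 against control at P14, the same at P16, P14 to P16 in control, and P14 to P16 in dMF1/2 mice. Groups that do not overlap are in red: Id1 (-0.80), Id3 (0.35) and Smad6 (0.74) at P16, and Smad6 (-0.81) between the days in controls.

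Several marker lists differed between the genotypes at P16 together with these genes, in levels summed over the 12 libraries scaled together. The 5 pericyte markers (all listed, none at 0 in any library) summed to 22193 to 28896 normalized reads in controls and 10131 to 14446 in dMF1/2 mice. Cspg4 made up most of the difference, at 9408 to 15512 in controls and 2191 to 3873 in dMF1/2 mice, while the other 4 summed to 12786 to 13384 and 7236 to 12255. Of these, only Rgs5 had an unadjusted p under 0.05 (log2 fold change -0.55, limma's adjusted p 0.189), and Kcnj8 overlapped, with a log2 fold change of 0.04. The 10 dissociation stress genes, all listed, summed to 360601 to 503549 in controls and 321655 to 343031 in dMF1/2 mice. The 13 dermal papilla markers summed to 49253 to 88747 in controls and 96563 to 145057 in dMF1/2 mice. The summed level of the 8 endothelial markers, all listed and none at 0, overlapped (767 to 1633 against 846 to 1166), though not without control replicate 1, and endothelial cells are known to express Id1, Id3 and Smad6. Gene by gene the endothelial list had a median log2 fold change of -0.79 with 1 of 8 above 0, and none passed by limma. By limma 3 (Esam, Emcn and Tie1) were under an unadjusted p of 0.05, as were 19.0% of all genes. With the P16 libraries scaled alone, Esam was lower in dMF1/2 mice without overlap, at 98.4 to 154 normalized reads against 186 to 221 in controls, and Kdr was higher, at 284 to 510.2 against 91.7 to 264. The part of each of these in the differences of Id1, Smad6 and Id3 was not tested. In sorted pools of cells, fewer cells of a type and less RNA per cell cannot be told apart.

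**Figure D3:**
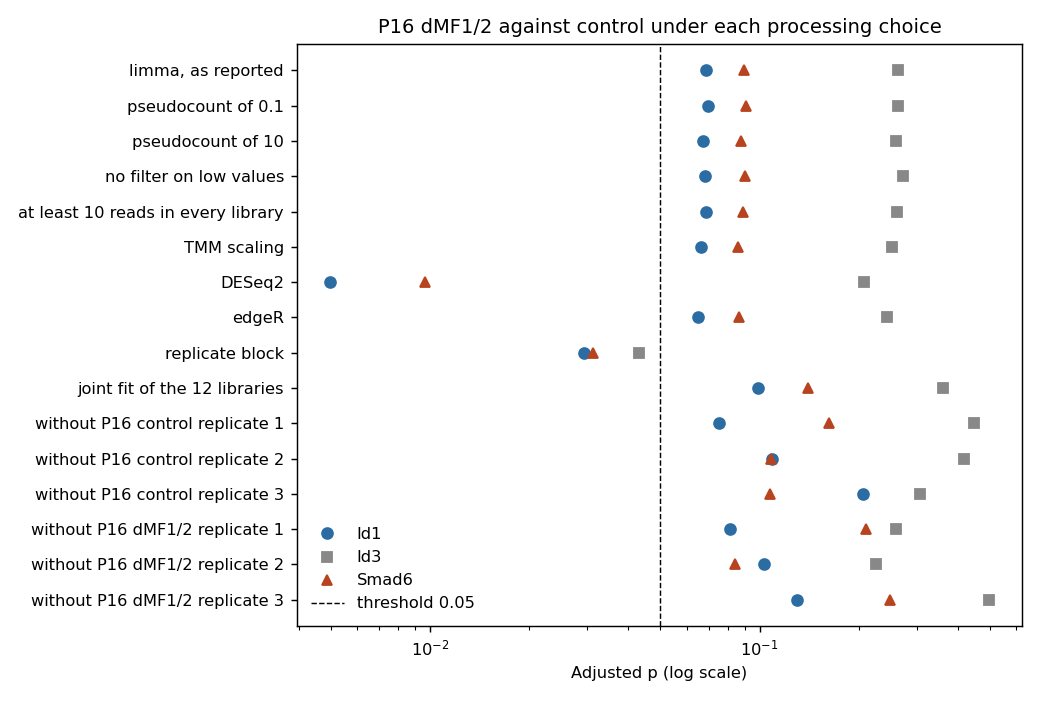
Adjusted p (horizontal axis, log scale) of Id1, Id3 and Smad6 for dMF1/2 against control at P16 under 16 processing choices (rows), with the threshold of 0.05 as a dashed line. Only the replicate block (all 3 genes) and DESeq2 (Id1 and Smad6) put points left of the line, and the 6 fits without 1 library lie to its right.

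At P14, 2 days earlier, no member separated the genotypes. limma called 0 of the 6 genes, none had an unadjusted p under 0.05 (7.32% of all genes did), and DESeq2, edgeR and the replicate block called 0 as well. limma called 0.0525% of all 13334 genes on this day (7 genes, as did edgeR), 1.68% with the block and DESeq2 1.4%. The groups overlapped for all 6 genes, while 12.7% of all genes did not overlap.

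Id1 was at 481, 343 and 684 normalized reads in P14 controls and at 398, 403 and 303 in P14 dMF1/2 libraries, giving a log2 fold change of -0.40 with an interval of -0.99 to 0.19 (limma's adjusted p 0.861). Only control replicate 2 lay within the mutant range, and the log2 fold change of Id1 was -0.15 without control replicate 3 and -0.65 without control replicate 2. Id3 was at 3058, 2849 and 3419 in controls and 5326, 3598 and 3405 in dMF1/2 mice, giving a log2 fold change of 0.38 with limma's adjusted p 0.754. The highest of these Id3 values came from a library numbered 1, which stands apart in collagen reads, and without it the log2 fold change of Id3 was 0.18, against 0.50 without dMF1/2 replicate 3.

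The P14 libraries numbered 1 were also the highest of their groups for both inhibitory Smads. Smad6 was at 1294, 948 and 769.6 normalized reads in controls and at 1471, 874 and 942 in the mutants, for a log2 fold change of 0.12 (interval -0.47 to 0.71). Smad7 (ENSMUSG00000025880, chr18:75367529-75395935, plus strand) was at 2233, 1622 and 2129 in controls and 2729, 1688 and 1679.6 in dMF1/2 mice, with a log2 fold change of 0.0015. Without both P14 libraries numbered 1, an analysis added after the data were seen, none of the 6 genes was called either.

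Id2 and Id4 overlapped at P14 as well. Id2 was at 962, 1207 and 1117 normalized reads in controls and 1282, 1036 and 964 in dMF1/2 mice, with a log2 fold change of -0.0064 and an interval of -0.33 to 0.32. Id4 was at 126, 150.1 and 197 in controls and 166, 156 and 168 in dMF1/2 mice, and its log2 fold change was 0.07 (interval -0.35 to 0.49).

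The change from P14 to P16 was read with the 12 libraries scaled together, and the controls of each day are the ones used above. In controls Smad6 went from 1311, 961 and 779.7 normalized reads at P14 to 426, 619 and 694 at P16. Every P16 control was below every P14 control, and the log2 fold change was -0.81 ± 0.25 (SE, interval -1.36 to -0.25), or 0.572 of the P14 level. limma's adjusted p was 0.0543, just short of the threshold that 14.5% of 13415 genes passed, so limma called 0 of the 6 genes and 1 had an unadjusted p under 0.05, as did 31.9% of all genes. DESeq2 called Smad6 (adjusted p 0.0184) against 18.0% of genes, while edgeR, at an adjusted p of 0.0501, called 0 against 15.1%. Without P16 control replicate 1 the log2 fold change of Smad6 was -0.60 with limma's adjusted p 0.191, without P14 control replicate 1 it was -0.61 (0.187), and with the control libraries alone in the fit the adjusted p was 0.0816. Without P14 control replicate 3 Smad6 changed by -0.98 with limma's adjusted p 0.0372, and without P14 dMF1/2 replicate 1, which changes only the estimate of spread, the adjusted p was 0.0345. Without both P14 libraries numbered 1 it was -0.61 with limma's adjusted p 0.105. Smad6 was the only member whose groups did not overlap, against 36.0% of all genes.

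Marker lists moved between the days in controls together with Smad6. The pericyte markers summed to 11196 to 18410 normalized reads in P14 controls and 22193 to 28896 in P16 controls (Cspg4 2965 to 6780.4 and 9408 to 15512, the other 4 markers 8230.3 to 11630 and 12786 to 13384), and the dermal papilla markers to 111670.5 to 153991 and 49253 to 88747, neither with overlap. The dissociation stress genes summed to 224585 to 373439 and 360601 to 503549, which overlapped. Their median log2 fold change was 0.55, and 7 of 10 were under an unadjusted p of 0.05 by limma, as were 31.9% of all genes. The endothelial sum overlapped as well (1078 to 1495 against 767 to 1633), while its genes had a median log2 fold change of 1.27 with 6 of 8 above 0. The part of these lists in the change of Smad6 was not tested.

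In dMF1/2 mice Smad6 was at 1492, 882 and 951 normalized reads at P14 and at 961, 767 and 1142 at P16, and the days overlapped (log2 fold change -0.19, interval -0.75 to 0.37). The difference between this change and that of the controls was 0.62 on the log2 scale, with an interval of -0.17 to 1.40 and an unadjusted p of 0.113 by limma. It ran from 0.41 without P16 control replicate 1 to 0.85 without P14 dMF1/2 replicate 1. With the replicate block within each day, a fit added after the data were seen, it was 0.62 ± 0.21 (SE), with an unadjusted p of 0.0158 and an adjusted p of 0.319 by limma. Between libraries of the same number Smad6 differed by 0.18, -0.12 and 0.29 on the log2 scale at P14, below each of the 3 differences at P16. The difference in course therefore did not pass the adjusted threshold with or without the block. limma called 0 genes for it, 0.0% of those tested, in both fits (0 to 2 without 1 library), and edgeR called 0. There were 648 genes (4.83%) under an unadjusted p of 0.05 without the block and 1467 with it, and DESeq2 called 6 genes (0.04%), none of them a member.

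The other members overlapped between the days in both genotypes. In controls their log2 fold changes ran from -0.29 (Id2) to 0.15 (Id1), and all 5 overlapped. In dMF1/2 mice all 6 values were below 0, from -0.25 (Id1) to -0.05 (Id2), with a median of -0.18 against 0.0094 over all genes. None of these passed by limma, DESeq2 or edgeR, which called 5.8%, 9.9% and 5.72% of genes in dMF1/2 mice, and none had an unadjusted p under 0.05, where 22.8% of all genes did. The days did not overlap for 27.6% of all genes in dMF1/2 mice and for 0 of the 6 members. The genotype difference in change was -0.40 for Id1 (interval -1.17 to 0.38), from -0.65 without P14 control replicate 3 to -0.15 without P14 control replicate 2, and between -0.18 and 0.24 for Id2, Id3, Id4 and Smad7.

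Ratios between members of the same library do not depend on the scaling of that library. All 15 pairs were computed after the levels had been seen, and the genotypes did not overlap for 3 pairs at P14 and for 10 at P16. Over all pairs of the genes tested the shares were 13.3% and 26.6%. Of the 10 pairs at P16, 9 held Id1 or Smad6, whose own levels did not overlap, and the remaining pair was Id3/Id4. Id1/Id3 alone did not overlap in the same direction on both days. At P14 it was 0.157, 0.121 and 0.200 in controls and 0.0750, 0.112 and 0.0893 in dMF1/2 mice. At P16 it was 0.165, 0.190 and 0.194 in controls and 0.112, 0.0682 and 0.0727 in dMF1/2 mice. The log2 difference was -0.78 at P14 and -1.15 at P16, each with an exact two-sided permutation p of 0.1, the smallest that 3 against 3 can give. Of all genes, 15.7% had a ratio to Id3 that was likewise lower without overlap on both days (28.4% at P14 and 32.0% at P16), and the mean of Id3 itself was higher in the mutants on both days.

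The ratio Smad6/Smad7 compares both inhibitory Smads in a library. At P16 it was 0.218, 0.473 and 0.347 in controls and 0.573, 0.558 and 0.514 in dMF1/2 mice, higher in every mutant library. Its log2 difference was 0.73 (exact two-sided permutation p 0.1), and 0.44 without control replicate 1, with the genotypes still apart. Of all genes, 3.32% had a ratio to Smad7 that was higher without overlap, 1.68% at P14 and 0.88% on both days. At P14 it was 0.580, 0.585 and 0.362 in controls and 0.539, 0.518 and 0.561 in dMF1/2 mice, which overlapped, with a log2 difference of 0.12 that turned to -0.11 without control replicate 3. The 2 lowest of the 12 values of this ratio were P16 controls.

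**Figure D4:**
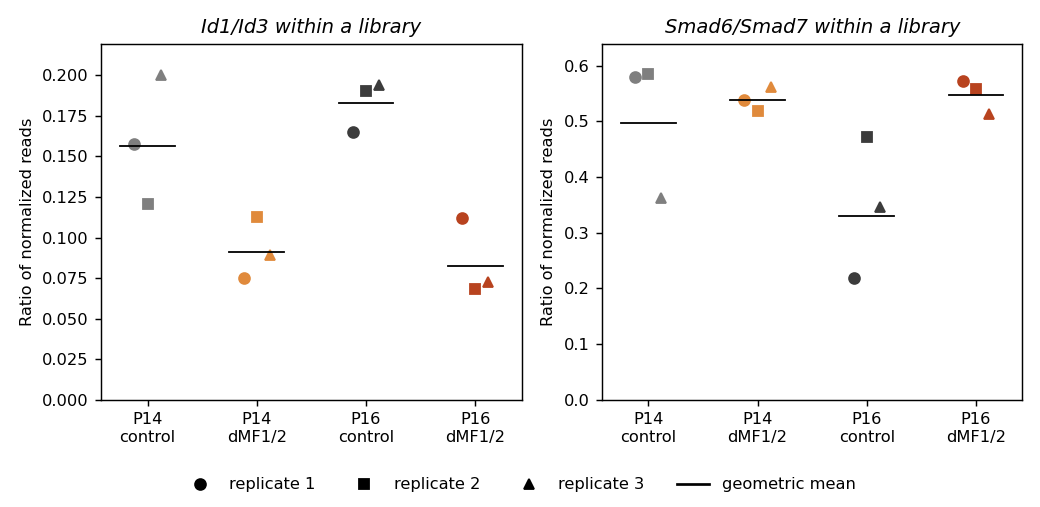
Ratios of normalized reads within a library (vertical axes, linear from 0) for Id1/Id3 and Smad6/Smad7 in the 4 groups. Points are libraries, marked by replicate number, and lines are geometric means: Id1/Id3 is lower in dMF1/2 mice on both days (0.091 against 0.156 at P14 and 0.082 against 0.183 at P16), and Smad6/Smad7 is lower in P16 controls (0.329) than in P16 dMF1/2 mice (0.547).

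The 6 genes did not all follow 1 pattern over the 12 libraries. Id2, Id3 and Smad6 were more alike than any of them was to Id1. Likeness was measured as the root mean square difference between z-scored log2 levels, where 0 means the same pattern. The most alike members were Id2 and Smad6 at 0.783, Id3 and Smad6 at 0.802, Id3 and Smad7 at 0.808 and Id2 and Id3 at 0.826. The least alike were Id1 and Smad6 at 1.52, Id1 and Id3 at 1.47 and Id1 and Id2 at 1.39. Among the 10239 genes that averaged 100 normalized reads or more, each member had nearer genes than any other member. So large a pool makes this likely for any gene, so it says nothing about how alike the members are. The nearest to Smad6 were Gli2 (0.151), Celsr1 (0.214) and Arid3a (0.222), and those near to Smad7 included Atxn2 (0.296) and Frat2 (0.319). Those nearest to Id1 were Itga6 (0.375), Ubxn6 (0.380) and Specc1 (0.385), and those nearest to Id3 were Kat6b (0.394), Osbpl6 (0.439) and Gm21092 (0.450). Id2 was nearest to Ppp1r2 (0.456), Wdr86 (0.485) and Spock3 (0.490), and Id4 to Cep135 (0.531), Hspd1 (0.595) and Eea1 (0.602).

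The other genes of the BMP and TGF-beta pathways were taken from fixed lists, read at P16 against the 2.18% of genes that rose and the 2.14% that fell by limma. Among BMP ligands and antagonists, 6 of 19 tested rose in dMF1/2 mice and 0 fell. Among them were Bmp6, a BMP ligand (log2 fold change 1.67, limma's adjusted p 0.00841), the secreted antagonists Nog (1.68), Sostdc1 (2.34) and Fst (1.34), the last of which binds mainly activin, and Bambi (1.05), a membrane pseudoreceptor that BMP signaling also induces. The median of the list was 0.06, and the count was 2 without dMF1/2 replicate 3 and 3 without control replicate 3. The calls over all genes fell in the same fits, from 582 to 149 and 184. Bmp4, the BMP ligand best known from dermal papilla, was at 3465 to 3906 normalized reads in controls and 2825 to 3944 in dMF1/2 mice, with limma's adjusted p 0.587.

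Receptors and signaling Smads were read at P16 against the 4.32% of all genes that passed by limma. Of 15 receptors only Eng, the co-receptor endoglin, passed, with a fall of 0.64 on the log2 scale (log2 fold change -0.64, limma's adjusted p 0.00611). Of 19 Smads and intracellular modulators, Smad3 (0.42) and Zeb2 (0.47), a Smad-binding repressor, rose and none fell, though neither passed without any 1 of the 6 libraries. Smad1, Smad5 and Smad4, which carry the BMP signal, had log2 fold changes of 0.02, 0.08 and 0.04 (limma's adjusted p 0.950, 0.653 and 0.898).

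Among 10 TGF-beta and activin ligands and latent binding proteins, Ltbp1, which holds latent TGF-beta in the matrix, rose by 0.82 on the log2 scale, and Tgfb1 (-0.96) and the activin subunit gene Inhbb (-1.75) fell, 3 genes that became 1 without control replicate 3. Of 9 other BMP-induced genes, which had a median log2 fold change of 0.38, only Bambi passed (2 genes by DESeq2), and 0 did without control replicate 1 or 3 or dMF1/2 replicate 1 or 3. Atoh8 (0.74), Msx1 (0.60), Msx2 (0.38) and Hey1 (0.38) had limma's adjusted p from 0.126 to 0.301. Of 13 other TGF-beta-induced genes none passed by limma or edgeR, and 4 were under an unadjusted p of 0.05 by limma, as were 19.0% of all genes. Of the same 13, 4 passed with the replicate block, 3 by DESeq2, 4 without control replicate 2 and 1 without control replicate 1. The median log2 fold change of the 13 was -0.16. Of 11 helix-loop-helix (HLH) factors, which took in the EBF family beside bHLH factors, the bHLH gene Hand2 (1.60) and Ebf1 (0.85), an HLH factor outside the bHLH class, rose, the bHLH gene Twist1 (-0.67) fell, and the E protein genes Tcf3, Tcf4 and Tcf12, whose products ID proteins bind, had log2 fold changes of -0.16, -0.29 and -0.13 that did not pass. The 3 HLH calls became 1 without dMF1/2 replicate 2 or 3.

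At P14, of all these lists, limma called only Bmp3, which encodes a BMP that opposes the others, with a log2 fold change of -1.74 and an adjusted p of 0.0474. By limma 7 of 19 BMP ligands and antagonists were under an unadjusted p of 0.05, as were 7.32% of all genes. For TGF-beta and activin ligands and binding proteins it was 3 of 10, and for each other pathway list 0 or 1. Of the 19, 3 were higher and 2 lower in dMF1/2 mice without overlap, where 12.7% of all genes did not overlap. The calls over all genes were 0 to 18 when 1 library was left out. Bmp3 was lost without any 1 of 5 of the libraries, all but dMF1/2 replicate 1, and 3 BMP ligands and antagonists passed with the replicate block or by DESeq2. DESeq2 also called 2 of the TGF-beta and activin ligands and latent binding proteins at P14, of which limma called 0.

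**Figure D5:**
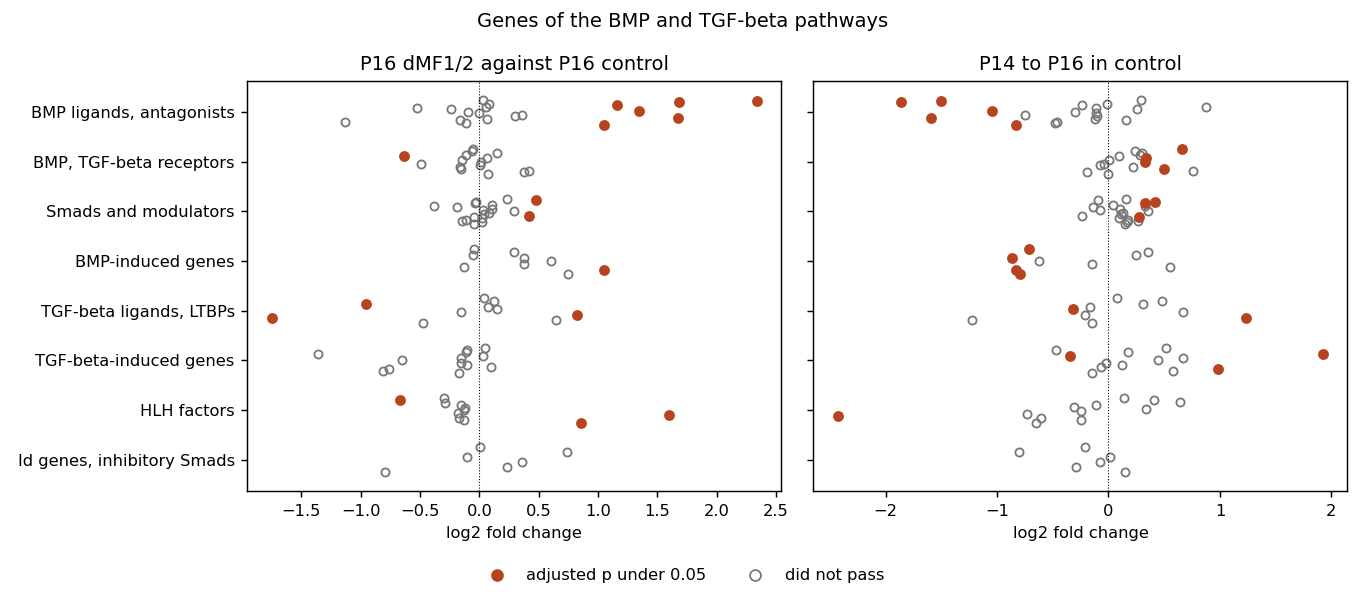
Log2 fold changes (horizontal axes) of the genes in 7 pathway lists and of the 6 Id genes and inhibitory Smads, for dMF1/2 against control at P16 and for P14 to P16 in controls. Each point is a gene and filled points passed limma's adjusted p of 0.05: 6 BMP ligands and antagonists are filled on the right at P16 and 5 on the left in controls, and no Id gene or inhibitory Smad is filled in either.

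From P14 to P16 in controls, where limma called 6.26% of genes higher and 8.28% lower, 5 of 19 BMP ligands and antagonists fell and 0 rose. These were Nog (-1.86), Bmp6 (-1.59), Sostdc1 (to 0.353 of its P14 level), Fst (-1.05) and Bambi (-0.83). Since the P16 controls enter this comparison and that of the genotypes at P16, the lists of called genes in them are not independent. Of 9 other BMP-induced genes 4 fell, Atoh8 (-0.80), Bambi, Msx2 (-0.87) and Tcf7l1 (-0.72), and 0 rose, with a median of -0.62 against 0.01 over all genes. Of 15 receptors 4 rose, Tgfbr3 (0.66), Acvr2a (0.49), Bmpr2 (0.33) and Bmpr1a (0.33), and of 19 Smads and modulators Usp9x (0.42), Usp15 (0.32) and Smad2 (0.27) rose, with none falling in either list. Among the 13 TGF-beta-induced genes tested, those that passed included Cdkn1a (0.99), which rose, and Pmepa1 (-0.34), which fell. Inhbb (1.24) rose and Ltbp3 (-0.32) fell among 10 TGF-beta and activin ligands and binding proteins, and Hand2 (-2.43) was the 1 HLH factor of 12 that fell. The count of BMP ligands and antagonists was 2 without P14 control replicate 1 or 2 or P16 control replicate 1 or 3 and 3 without P14 dMF1/2 replicate 3 or P16 dMF1/2 replicate 1, and that of the other BMP-induced genes was 1 without P14 control replicate 1 or 2 or P16 control replicate 1. Each other list had a lowest count of 0 or 1 when 1 library was left out, and DESeq2 called 4 HLH factors. Over all genes, 1951 were called, and leaving out a control library of P16 numbered 1 or 3 gave 693 or 971, and one of P14 numbered 1 or 2 gave 782 or 1044. With the control libraries alone in the fit, 2 BMP ligands and antagonists, 2 other BMP-induced genes and 1 receptor passed, and 0 Smads and modulators, TGF-beta and activin ligands and TGF-beta-induced genes did. The part that the pericyte, dermal papilla, endothelial and stress genes, whose levels in controls of the 2 days are given above, had in these list changes was not tested.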

How the data were processed

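RNA was depleted of ribosomal RNA and made into directional libraries. According to the submitters' processing notes and the methods, the authors used Trimmomatic for trimming and TopHat2 (version 2) for mapping to mm10, counted them per Ensembl gene (GRCm38.p4) with HTSeq and normalized them with DESeq2. The deposited signal values are reads divided by size factors within a day, and 100% came out as whole reads (tolerance 0.01). The authors' columns of log2 fold changes, standard errors, Wald statistics and p-values were not used.

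Genes with a mean of at least 10 were tested by limma 3.58.1 (R 4.3.3, mean-variance trend) on log2(value + 1), adjusted by the Benjamini-Hochberg method over all genes. Folds are on that scale. For changes between days, reads of 14986 shared genes were rescaled over 12 libraries by median of ratios and fitted with 4 groups. The plan named edgeR as the main test only for raw counts. Whether replicate numbers pair libraries was checked as the correlation of deviations from the group means. It was 0.573, 0.378 and 0.288 at P14 and 0.266, 0.283 and 0.319 at P16 for shared numbers, and -0.42 to 0.095 for unlike numbers. Libraries that shared a number were thus more alike within a day. The main fits, their intervals and the exact permutation tests did not use this pairing, and only the replicate block did. Alternatives were pseudocounts of 0.1 and 10, no filter, at least 10 reads in every library, TMM, edgeR 4.0.16, DESeq2 1.42.0, the block, other samples in the fit, and leaving out 1 library. The fit without both P14 libraries numbered 1 was chosen after seeing the data, as were the block within day in the interaction and the ratios without 1 library. Scripts were tested on simulated data. The members and gene lists were chosen with earlier results of these data known. Genes named are the members, list genes with an adjusted p under 0.05 and a few defining ones, and the 3 nearest patterns to each member; a few of these are not reported here. Exact tests of 3 against 3 cannot go below 0.1.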

Additional observations from a re-analysis of the deposited data

How the results depend on the processing

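Of 564 results for Id1, Id2, Id3, Id4, Smad6 and Smad7 under alternatives, 508 kept their direction and side of the threshold. Another 9 passed the threshold newly, 0 lost it and 47 changed sign. None of the sign changes went beyond 0.23 on the log2 scale or had an adjusted p under 0.661. The main fits called none of these genes in any comparison, so a call could not be lost. The 508 results kept their sign and stayed uncalled, which does not show that any call is stable. At P16 the count of members called was 2 with DESeq2 and 3 with the replicate block (Id1, with an adjusted p of 0.0292, Id3 and Smad6). The block changed the call of no member but these 3 at P16, and of none at P14 or in the interaction. From P14 to P16 in controls it was 1 with TMM (Smad6, adjusted p 0.0492), 1 with DESeq2 and 0 to 1 without 1 library.

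Signs that turned: at P14, Id2 with edgeR (0.00032), Smad7 in the joint fit (-0.0018), and, without both P14 libraries numbered 1, Id4 (-0.089) and Smad7 (-0.14). In controls between days, Id4 with TMM (-0.011), DESeq2 (-0.0044), edgeR (-0.020) and without both libraries (-0.14). In dMF1/2 mice without both libraries, Id2 (0.068), Id3 (0.10), Smad6 (0.044) and Smad7 (0.022). In the interaction, Smad7 with DESeq2 (-0.022) and edgeR (-0.016), and Id3 without both libraries (0.19). The cause was not tested. Without 1 library, log2 values ran at P14 from -0.13 to 0.079 for Id2, -0.23 to 0.12 for Smad7, -0.11 to 0.32 for Smad6 and -0.077 to 0.24 for Id4. At P16 they ran from -0.19 to 0.17 for Smad7 and -0.22 to 0.0047 for Id4. In controls between days they ran from -0.14 to 0.18 for Id4 and -0.093 to 0.40 for Id1. In dMF1/2 mice they ran from -0.23 to 0.084 for Id2, -0.28 to 0.10 for Id3, -0.40 to 0.022 for Smad7 and -0.33 to 0.044 for Smad6. In the interaction they ran from -0.20 to 0.24 for Smad7 and -0.21 to 0.18 for Id3. Values that kept their sign ran in controls between days from -0.41 to -0.083 for Id2, -0.15 to -0.0038 for Id3 and -0.36 to -0.016 for Smad7, in dMF1/2 mice from -0.38 to -0.023 for Id1 and -0.23 to -0.069 for Id4, and in the interaction from 0.029 to 0.38 for Id2 and -0.35 to -0.029 for Id4. Over all genes, the count called at P14 was 7 by limma, 205 by DESeq2 and 224 with the block, at P16 it was 582, 1114 and 1403, and from P14 to P16 in dMF1/2 mice 778 by limma and 1311 by DESeq2. Without 1 library limma called 0 to 18 genes at P14, 149 (without dMF1/2 replicate 3) to 684 at P16, 693 (without P16 control replicate 1) to 2129 between days in controls, and 257 (without P16 dMF1/2 replicate 1) to 861 in dMF1/2 mice. With the libraries of 1 genotype only, the count between days was 806 in controls against 1951, and 322 in dMF1/2 mice. Every member had over 100 reads in each library, and the intervals rest on 3 libraries per group.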

Other observations

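Keratinocyte, melanocyte, immune and adipocyte marker lists gave low sums in the sorted cells, on the scale of the 12 libraries together, and over the markers listed on both days. Hair follicle keratinocyte markers summed to 103 to 472 normalized reads in P16 controls and 276 to 446 in P16 dMF1/2 mice (8 of 9 listed on both days, 2 at 0 in some library). Melanocyte markers summed to 52.0 to 83.5 and 69.7 to 75.0 (5 of 5, 2 at 0 in some library), immune markers to 32.7 to 58.1 and 30.1 to 46.8 (3 of 6, 1 at 0 in some library), and adipocyte markers to 223 to 430 and 356 to 561 (2 of 4). Plin1, which coats lipid droplets, was the adipocyte marker that passed at P16 (log2 fold change 2.43, limma's adjusted p 0.00604). The other of the 2 tested, Fabp4, was lower in dMF1/2 mice and did not pass. By limma both were under an unadjusted p of 0.05, as were 19.0% of all genes. Of the pericyte markers Cspg4 passed (-2.05, limma's adjusted p 0.00604), and of the dissociation stress genes Atf3 (-0.65, limma's adjusted p 0.0224). Among dermal papilla markers Rspo3 (3.20), Alpl (2.45), Prom1 (1.07) and Fgf10 (0.96) rose and Crabp1 (-0.66) fell at P16.

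In dMF1/2 mice limma called 2 of 15 receptors, 2 of 19 Smads and modulators and 1 of 9 other BMP-induced genes between P14 and P16, where it called 5.8% of all genes. The receptor genes Acvr1c (1.41) and Bmpr2 (0.36) and the deubiquitinase gene Usp9x (0.45) rose, and Tcf7l1 (-0.77) and the ubiquitin ligase gene Stub1 (-0.39) fell. The counts of receptors and of Smads and modulators rest on single libraries, as does that over all genes. The count of other BMP-induced genes stayed at 1 whichever library was left out. Of the 2 receptor calls, 1 was left without P14 control replicate 3 or P16 dMF1/2 replicate 3, 0 without P14 control replicate 2, P14 dMF1/2 replicate 2 or 3, P16 dMF1/2 replicate 1 or 2 or any 1 P16 control, and 0 with the dMF1/2 libraries alone, while DESeq2 called 4 receptors. Of the 2 calls among Smads and modulators (Usp9x and Stub1), 0 were left without P16 dMF1/2 replicate 1, and 1 with the dMF1/2 libraries alone, with no filter on low values, or without P14 control replicate 2 or 3, P14 dMF1/2 replicate 2 or 3, P16 control replicate 1 or 3 or P16 dMF1/2 replicate 2 or 3. None of 19 BMP ligands and antagonists passed there by limma (1 did by DESeq2), and their median was 0.15. By limma 3 of them were under an unadjusted p of 0.05, as were 22.8% of all genes.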
